A study of Mus musculus with 12 samples.

Results

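The genes described here encode the machinery of the lysosome: the subunits of the vacuolar proton pump (V-ATPase) and its accessory proteins, the cathepsins, 17 further lysosomal and autophagy genes chosen by name, and every other symbol that shares the V-ATPase or cathepsin name stems. The names matched 63 of the 35385 deposited gene symbols. A gene was tested when its level reached at least 1 TPM (a share of the library's transcripts, corrected for transcript length) in at least 3 of the 12 libraries. Of the 63 genes 40 passed this filter, among 12009 genes of the series that passed it, and 23 did not.

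RNA was measured in oligodendrocyte progenitor cells (OPCs) of the mouse. These precursors of myelin-forming cells had been grown from pluripotent stem cells. After 1 h of attachment the cells were exposed for 4 h to the solvent dimethyl sulfoxide (vehicle) or to a quaternary ammonium compound. Cetylpyridinium chloride (CPC) joins a pyridinium ring to a long alkyl tail. The compound C12-C14-alkyl(ethylbenzyl)dimethylammonium chloride, here AEBDAC, has an ethylbenzyl ring besides its alkyl tail, and methyltrioctylammonium chloride (MTOAC) has octyl chains and no ring. Each compound was given at its own IC75, the concentration that inhibits by 75%, so concentrations differed between compounds. The labels do not state them. The titles number the 3 libraries of each of the 4 groups from 1 to 3. Whether they stem from separate cultures is not stated in the labels. All p-values therefore measure only the spread between these libraries, which may be technical.

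Lysosomes break down material delivered by endocytosis and autophagy, and their enzymes work in an acid interior that the V-ATPase maintains. The pump has a soluble V1 part that splits ATP and a membrane-bound V0 part that carries protons. The transcription factor TFEB switches on many lysosomal and autophagy genes through a short promoter element built around CACGTG, and in the oligodendrocyte lineage TFEB is known to restrain myelination. Quaternary ammonium compounds are positively charged and amphiphilic.

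The 12 libraries had summed levels of 772637 to 797758 TPM. The 7 OPC markers (Olig1, Olig2, Pdgfra, Cspg4, Sox10, Gpr17 and Ptprz1) passed the filter, with summed levels of 1925 to 2300 TPM in vehicle, 1537 to 1694 with CPC, 1421 to 1689 with AEBDAC and 1213 to 1326 with MTOAC. The part of this shift in the results below was not tested. Microglia and macrophages are rich in lysosomes. Of 12 markers of these cells 0 passed the filter, their sums were 0.0313 to 3.39 TPM, and 6 of them (Cx3cr1, Tyrobp, Trem2, C1qa, C1qb and C1qc) were listed at 0 in all 12 libraries. Vehicle library 1 was unlike the rest: mt-Nd3, a mitochondrially encoded gene, was listed at 0 there and at 8716 to 13261 TPM in the others. All mitochondrially encoded genes together came to 86422 TPM there and to 147539 to 183001 in the others. Vehicle library 1 held the highest value of 41.2% of all tested genes and of 14 of the 40 lysosomal genes (35%). Values without it are given for Atp6v0b, Atp6v0c, Atp6v0c-ps2, Atp6v1h, Atp6ap1, Mcoln1, Tfeb, Sqstm1 and Map1lc3b.

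At most 1 of the 40 lysosomal genes differed from vehicle with any compound by the test used. Tests used limma on log2(TPM + 1), and fold changes below are on that scale, which understates the change of low genes. A gene was called at an adjusted p under 0.05 over all 12009 genes. With CPC 0 of the 40 genes were called (0.0666% of all tested genes were), and 3 had an unadjusted p under 0.05 (13.6% of all). With AEBDAC 0 were called (1.27% of all), and 4 had an unadjusted p under 0.05 (19.2%). With MTOAC 1 was called (6.54% of all). This was Atp6v0b, which was higher (0.791% of all tested genes were called higher and 5.75% lower). With MTOAC 3 genes had an unadjusted p under 0.05 (24.4% of all). The median fold change of the 40 genes was 0.00 log2 with CPC, 0.05 with AEBDAC and 0.03 with MTOAC. The median over all tested genes was -0.17, -0.16 and -0.22, so that the lysosomal median lay 0.17, 0.21 and 0.25 above it. TPM are relative to the library's sum, so this scale does not show which of the medians moved in absolute amount. In these bulk samples fewer cells of a type and less RNA per cell cannot be told apart. The comparisons share the vehicle libraries.

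**Figure D1:**
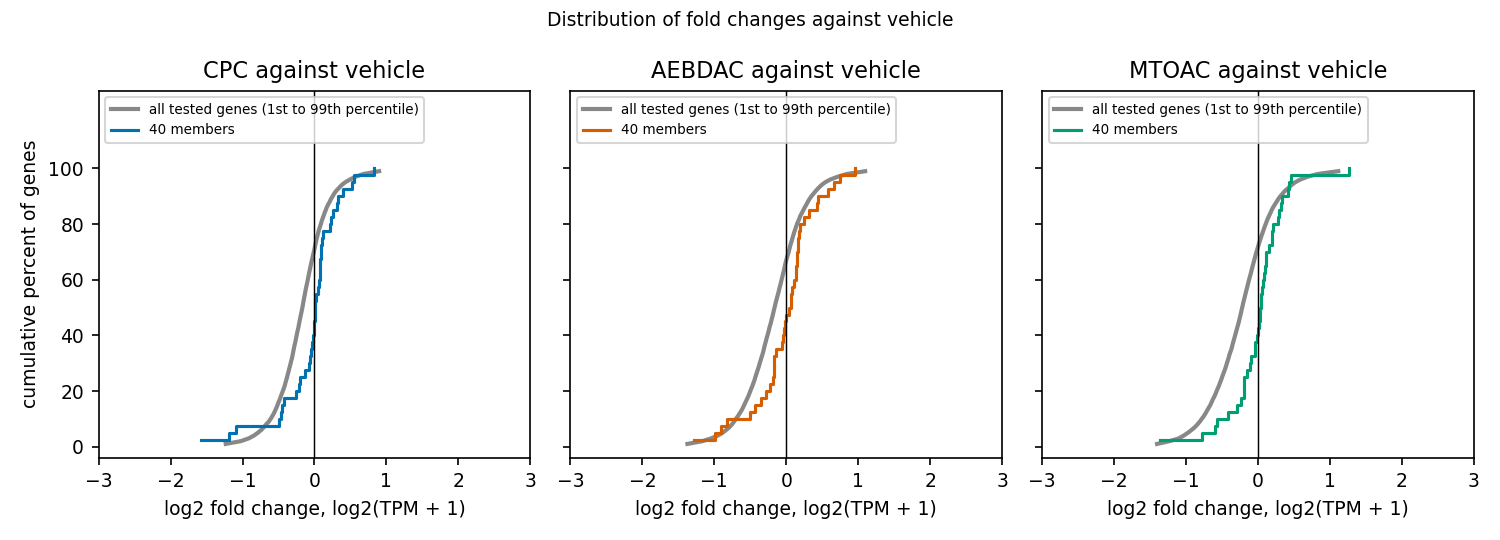
Cumulative percent of genes (y axis) against log2 fold change on log2(TPM + 1) (x axis) for each compound against vehicle, with the 40 lysosomal genes as a coloured step line and all tested genes, from the 1st to the 99th percentile, as a grey line. The medians of the lysosomal genes sit at 0.00, 0.05 and 0.03, to the right of the medians of all genes at -0.17, -0.16 and -0.22.

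The 95% interval of the fold change lay wholly within 1 log2 of no change for 28 of the 40 genes with CPC (63.1% of all tested genes), 27 with AEBDAC (58.8%) and 28 with MTOAC (55.5%). The median half-width of that interval was 0.45 log2 for the 40 genes. The median lysosomal gene stood at 39.7 TPM, against 11.2 for all tested genes, and the median spread within groups was 0.26 log2 (SD), against 0.30.

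**Figure D2:**
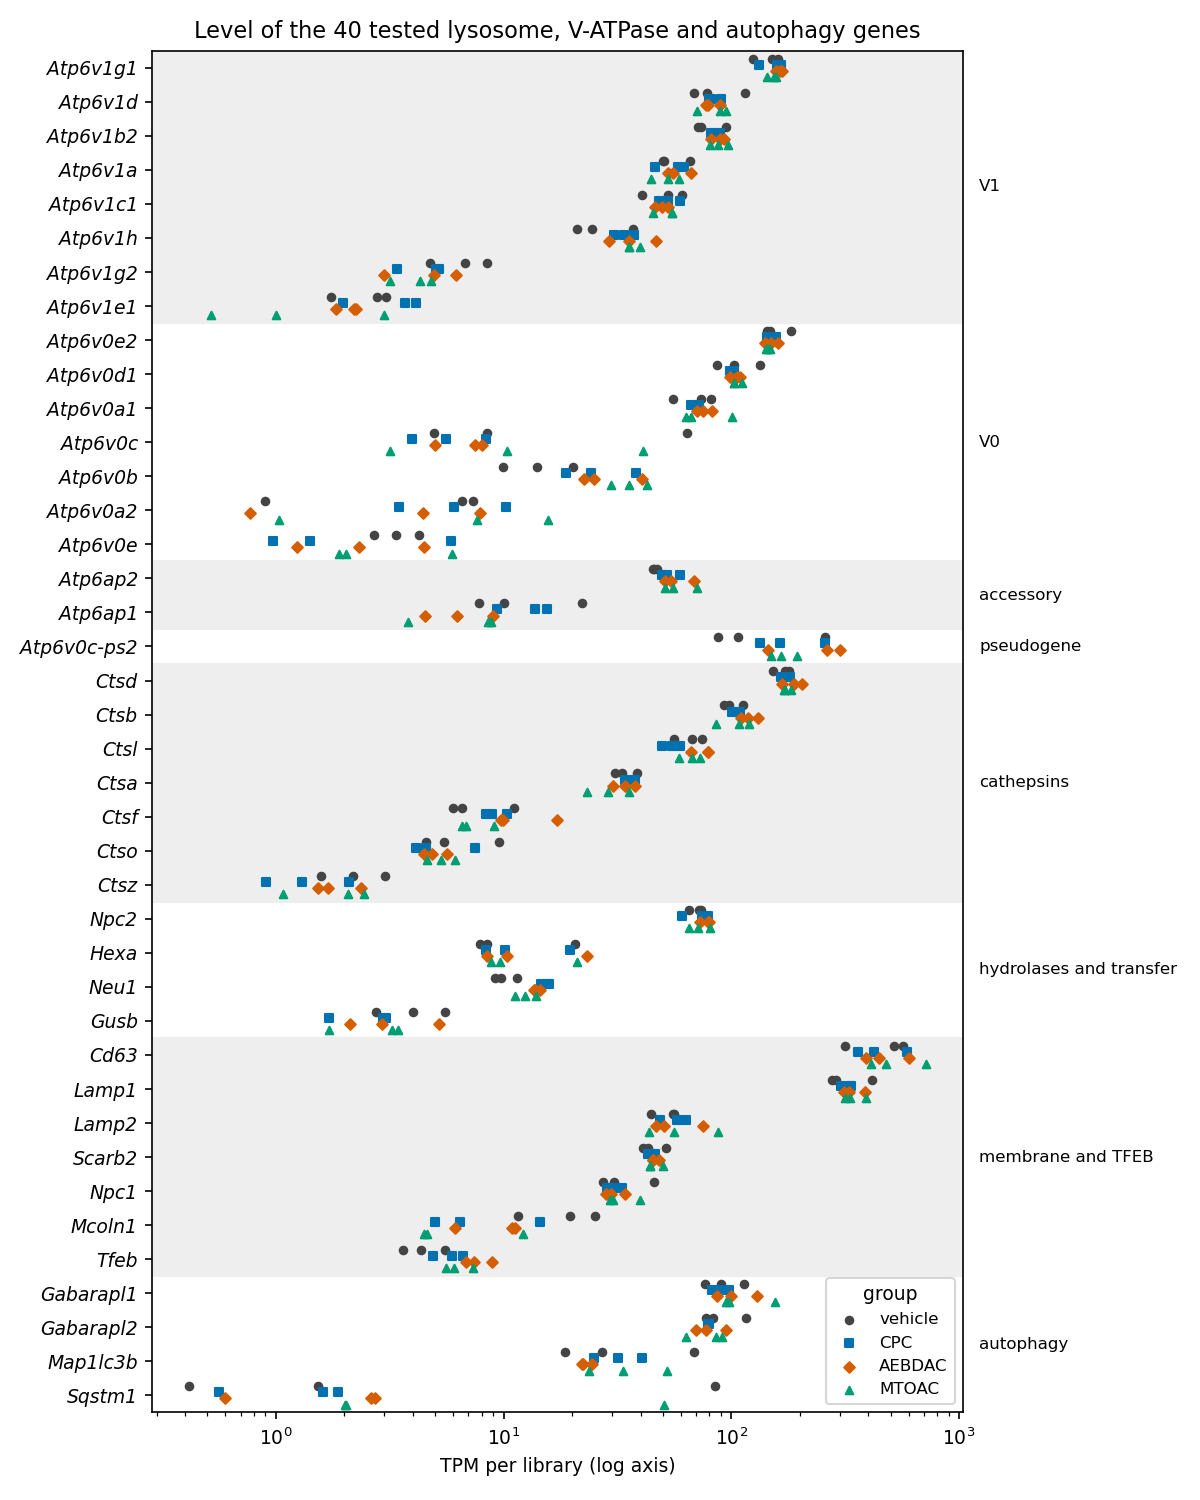
TPM in each of the 12 libraries (x axis, log scale) for the 40 tested lysosome, V-ATPase and autophagy genes (y axis), coloured by group and ordered by role. Cd63 and Lamp1 lie at the top of the range, Ctsz and Atp6v1e1 near the bottom, and Sqstm1 and Atp6v0c each have 2 libraries far above the other 10.

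The V1 subunits form the soluble head and stalks of the pump. Of 13 matched genes 8 were tested, and 0 of the 8 were called with any compound. The summed level of all 13 was 457 ± 33.5 TPM in vehicle (SD, n = 3), 473 ± 16.9 with CPC, 484 ± 15.5 with AEBDAC and 472 ± 12.7 with MTOAC. The stalk subunit Atp6v1g1 was the most abundant, with 125, 151 and 160 TPM in the 3 vehicle libraries in order of their number, 133, 159 and 166 with CPC, 164, 167 and 158 with AEBDAC and 155, 157 and 144 with MTOAC. The groups overlapped in each comparison with vehicle, and the fold changes were 0.07, 0.17 and 0.07 log2, with limma adjusted p of 0.831, 0.473 and 0.767. The catalytic subunit Atp6v1a ranged from 44.5 to 66.2 TPM over the 12 libraries without a separation of the groups. Its partner in the catalytic ring, Atp6v1b2, ranged from 71.2 to 96.9, and the stalk subunits Atp6v1c1 and Atp6v1d from 40.4 to 61.0 and 68.3 to 115, with fold changes between -0.05 and 0.16 log2.

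Atp6v1h, a regulatory subunit, had the largest V1 fold change in the upward direction. It stood at 37.0, 24.4 and 20.9 TPM in vehicle, 33.9, 37.3 and 30.4 with CPC, 29.0, 46.8 and 35.7 with AEBDAC and 35.5, 39.9 and 35.6 with MTOAC. Vehicle libraries 2 and 3 were low and vehicle library 1 lay among the treated libraries. Its fold changes were 0.33, 0.44 and 0.46 log2 (limma adjusted p of 0.523, 0.292 and 0.215). Without vehicle library 1 they were 0.56, 0.67 and 0.68, and without vehicle library 3 they were 0.16, 0.27 and 0.29. The G subunit Atp6v1g2, a form found mainly in neurons, went from 6.66 TPM in vehicle to 4.10 with MTOAC, a difference of -0.57 log2 that did not pass the test in limma (adjusted p = 0.234). Summed neuron markers lay at 29.3 to 39.1 TPM in vehicle and 24.9 to 38.8 with MTOAC. The E subunit Atp6v1e1 was low throughout, at 0.519 to 4.14 TPM.

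The V0 subunits form the rotating proton channel and its membrane anchor. Of 9 matched genes 7 were tested. The sum of all 9 was 385 ± 85.2 TPM in vehicle (SD, n = 3), 362 ± 5.82 with CPC, 374 ± 8.84 with AEBDAC and 393 ± 43.2 with MTOAC. Vehicle library 1 and MTOAC library 3 held the highest sums, 483 and 442 TPM. The most abundant subunit, Atp6v0e2, stood at 183, 147 and 143 TPM in vehicle, 157, 143 and 146 with CPC, 161, 149 and 141 with AEBDAC and 147, 145 and 142 with MTOAC. Apart from vehicle library 1 its libraries lay within 141 to 161 TPM, and its fold changes were -0.08, -0.06 and -0.12 log2 (adjusted p of 0.804, 0.803 and 0.562 in limma). The anchor subunits Atp6v0a1 and Atp6v0d1 ranged from 55.6 to 100.4 and 86.8 to 133 TPM. Atp6v0a2 and Atp6v0e were low and uneven, at 0.768 to 15.7 and 0.967 to 5.96 TPM.

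Atp6v0b, on chromosome 4 at 117884326 to 117887333 (GRCm38, minus strand), encodes a proteolipid subunit of the V0 ring and was the gene called with MTOAC. It stood at 9.98, 20.2 and 14.1 TPM in vehicle, 18.8, 38.2 and 24.3 with CPC, 25.1, 40.7 and 22.4 with AEBDAC and 35.6, 42.7 and 29.6 with MTOAC. All AEBDAC and all MTOAC libraries lay above all vehicle libraries, CPC library 1 lay below vehicle library 2, and library 2 was the highest of its group in all 4 groups. Group means were 14.7 ± 5.14, 27.1 ± 9.98, 29.4 ± 9.85 and 35.9 ± 6.57 TPM (SD, n = 3). The MTOAC mean was 2.44 times the vehicle mean.

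The fold change of Atp6v0b with MTOAC was 1.27 ± 0.31 log2 (SE, 95% interval 0.59 to 1.95, limma adjusted p = 0.0386), and 1.49 relative to the median tested gene. With AEBDAC it was 0.95 ± 0.31 (adjusted p = 0.133) and with CPC 0.83 ± 0.31 (adjusted p = 0.291). For CPC, where same-numbered libraries deviated together, a limma fit with the replicate number as a block gave an adjusted p of 0.0498, and the count of called lysosomal genes was then 1 in place of 0. The share of all tested genes called in that fit was not computed. The MTOAC call was kept in 5 of 14 alternative fits and lost on leaving out any of 5 of the 6 libraries: the adjusted p was 0.114 without vehicle library 1, 0.0835 without vehicle library 3 and 0.0898, 0.123 and 0.0518 without MTOAC libraries 1, 2 and 3. The fold change stayed between 1.03 and 1.51 log2 in all 14. Between compounds the differences in Atp6v0b were 0.12 log2 for AEBDAC against CPC (95% interval -0.56 to 0.81), 0.44 for MTOAC against CPC (-0.24 to 1.12) and 0.31 for MTOAC against AEBDAC (-0.37 to 0.996), with an adjusted p of 1 in limma for each.

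**Figure D3:**
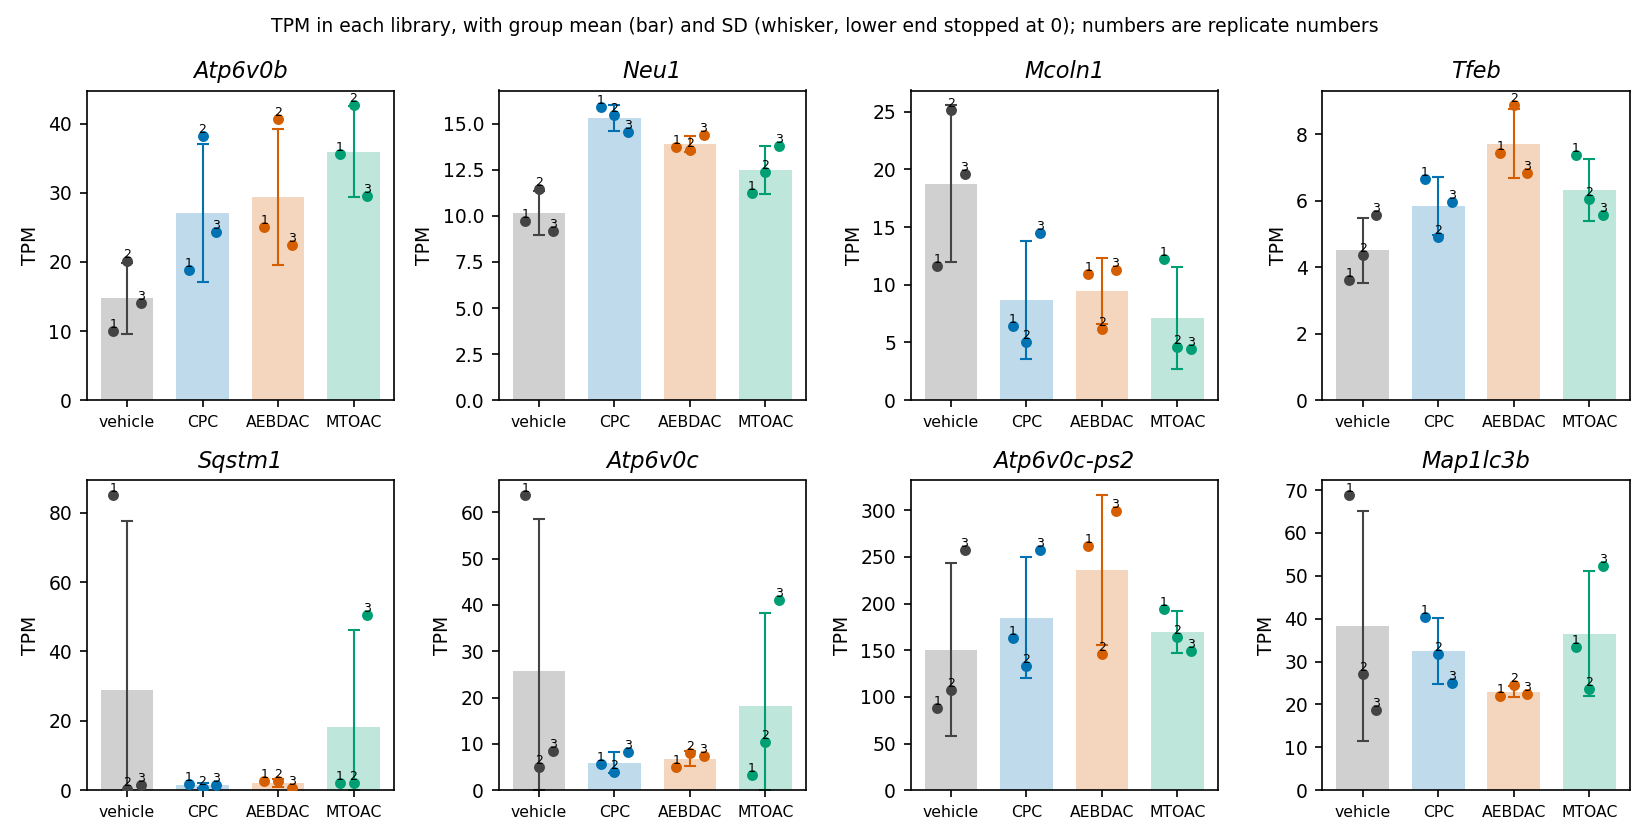
TPM by group (y axis, starting at 0) for single genes, with each library as a point marked by its number, the group mean as a bar and the SD (n = 3) as a whisker that stops at 0. Atp6v0b is lowest in vehicle, at 14.7 ± 5.14 TPM, and highest with MTOAC, at 35.9 ± 6.57, whereas the high values of Sqstm1 belong to vehicle library 1 and MTOAC library 3.

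Because TFEB acts through the CACGTG element, the 250 bases upstream of the start of Atp6v0b are shown with those of Mcoln1 and Lamp1, which are described further on. They come from RefSeq on GRCm38.p6, read 5′ to 3′ on the gene's strand, with each CACGTG in capitals. The Atp6v0b window is chr4:117887330-117887579 (minus strand), the Mcoln1 window chr8:3500269-3500518 (plus strand) and the Lamp1 window chr8:13158911-13159160 (plus strand).
Atp6v0b: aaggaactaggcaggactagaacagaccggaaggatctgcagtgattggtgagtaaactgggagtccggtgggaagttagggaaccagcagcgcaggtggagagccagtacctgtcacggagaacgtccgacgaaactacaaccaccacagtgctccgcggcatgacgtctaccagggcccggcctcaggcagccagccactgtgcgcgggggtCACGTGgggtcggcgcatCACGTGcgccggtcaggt
Mcoln1: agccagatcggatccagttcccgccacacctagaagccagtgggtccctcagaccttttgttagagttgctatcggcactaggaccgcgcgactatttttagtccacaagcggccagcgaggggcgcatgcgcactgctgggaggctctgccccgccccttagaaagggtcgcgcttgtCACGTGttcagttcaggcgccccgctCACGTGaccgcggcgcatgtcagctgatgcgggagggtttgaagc
Lamp1: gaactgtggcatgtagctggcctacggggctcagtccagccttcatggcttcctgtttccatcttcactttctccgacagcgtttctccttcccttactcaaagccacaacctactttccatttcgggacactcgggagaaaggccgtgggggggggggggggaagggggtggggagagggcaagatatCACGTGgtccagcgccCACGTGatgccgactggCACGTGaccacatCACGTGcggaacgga
Atp6v0b and Mcoln1 have 2 copies each and Lamp1 has 4. RefSeq and GENCODE place some starts differently: the GENCODE model of Mcoln1 begins at 3500457, inside the window shown, so that its second copy lies within that model.

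Promoters from 250 bases before to 50 after the start were found in RefSeq for 49 of the 63 genes. CACGTG, which reads the same on both strands, occurred in 12 of the 49 (24.5%), against 2187 of 27025 promoters in all (8.09%). Among the 32 tested genes with a promoter it occurred in 10 (31.2%): Atp6v0b, Atp6v0d1, Atp6v0e, Atp6v1a, Ctsa, Ctsd, Ctsf, Ctsl, Lamp1 and Mcoln1. The share among all genes that passed the filter was not computed, and the 27025 promoters include genes that did not pass it. The longer TCACGTGA, which contains CACGTG and is also its own reverse complement, occurred in 7 of the 49 (14.3%) and in 304 of all promoters (1.12%). With MTOAC Atp6v0b was called higher, at 1.27 log2, and the other tested genes with CACGTG were not called. Atp6v0d1, Atp6v0e and Atp6v1a had -0.01, -0.16 and -0.09 log2 with MTOAC. Ctsa, Ctsd, Ctsf and Ctsl had -0.24, 0.06, -0.04 and 0.01, and Lamp1 and Mcoln1 had 0.10 and -1.36. A part of TFEB in these values was not tested. A match describes the letters of this window and is no measurement of binding.

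Atp6v0c, the c subunit of the V0 ring, had an uneven pattern. It stood at 63.7, 4.93 and 8.42 TPM in vehicle, 5.59, 3.95 and 8.35 with CPC, 4.99, 8.02 and 7.46 with AEBDAC and 3.18, 10.3 and 41.1 with MTOAC. Vehicle library 1 and MTOAC library 3 were high and the other 10 libraries lay between 3.18 and 10.3 TPM. The fold changes were -1.19 ± 0.88, -0.99 ± 0.88 and -0.29 ± 0.88 log2 (SE, limma adjusted p of 0.578, 0.574 and 0.881), so the spread within groups exceeded the differences between them. Without vehicle library 1 they were -0.15, 0.044 and 0.75 log2, and without MTOAC library 3 that with MTOAC was -1.16.

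Atp6v0c has a near-identical processed pseudogene, Atp6v0c-ps2, whose name the matching also picked up. The pseudogene lies on chromosome 6 at 37806086 to 37806550 (GRCm38, plus strand, 465 bases), and the parent gene on chromosome 17 at 24163866 to 24169702 (minus strand). All 465 bases of the pseudogene aligned to the Atp6v0c transcript, with 99.8% identity and a single difference, T111C, counted from the first base of the pseudogene, with the Atp6v0c base first. The stretch around it is shown, with the differing base in capitals, because a read within the aligned bases that misses this base has the same letters in both genes.
Atp6v0c: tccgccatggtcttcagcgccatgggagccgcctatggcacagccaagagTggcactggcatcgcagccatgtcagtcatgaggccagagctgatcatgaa
Atp6v0c-ps2: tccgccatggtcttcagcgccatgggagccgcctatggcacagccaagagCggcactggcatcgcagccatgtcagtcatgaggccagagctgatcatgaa
The pseudogene was listed at a higher TPM than its parent in each of the 12 libraries.

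Atp6v0c-ps2 stood at 87.8, 107 and 257 TPM in vehicle, 163, 133 and 257 with CPC, 262, 146 and 300 with AEBDAC and 194, 165 and 149 with MTOAC. The groups overlapped in every comparison with vehicle, with fold changes of 0.40, 0.74 and 0.32 log2 (limma adjusted p of 0.683, 0.331 and 0.664). Without vehicle library 1 they were 0.097, 0.44 and 0.019, and without vehicle library 3 they were 0.87, 1.21 and 0.79. The sum of both genes was 176 ± 79.8 TPM in vehicle (SD, n = 3), 191 ± 66.9 with CPC, 243 ± 79.6 with AEBDAC and 187 ± 11.5 with MTOAC. On the summed TPM, in which a read counts by the length of the copy it was given to, the fold changes were 0.15, 0.49 and 0.18 log2 (adjusted p of 0.885, 0.462 and 0.795 in limma). They have the sign of the pseudogene, which makes up most of the sum in each library. Because Atp6v0c and Atp6v0c-ps2 are near-identical where they align, the level of either gene alone is uncertain.

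The accessory proteins Atp6ap1 and Atp6ap2 assist assembly of the pump, and Atp6ap2 is also the prorenin receptor. Atp6ap2 stood at 45.6, 45.4 and 47.1 TPM in vehicle, 49.6, 52.2 and 59.3 with CPC, 50.9, 54.1 and 68.7 with AEBDAC and 55.2, 51.1 and 70.5 with MTOAC. Each of the 9 treated libraries lay above the 3 vehicle libraries, and library 3 was the highest in every group. Fold changes of 0.21, 0.31 and 0.34 log2 were not called by limma (adjusted p of 0.551, 0.280 and 0.190).

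Atp6ap1 stood at 10.1, 22.1 and 7.80 TPM in vehicle, 13.7, 15.6 and 9.38 with CPC, 9.03, 6.27 and 4.53 with AEBDAC and 8.55, 3.79 and 8.84 with MTOAC. AEBDAC and MTOAC libraries lay below all CPC libraries, and overlapped with vehicle. Against vehicle the fold changes were 0.06, -0.82 and -0.77 log2 (limma adjusted p of 0.968, 0.285 and 0.258). They were -0.065, -0.95 and -0.89 without vehicle library 1, and 0.47, -0.42 and -0.36 without vehicle library 2.

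The cathepsins are the proteases of the lysosome. Of 18 matched genes 7 were tested, and 0 of the 7 were called. The sum of all 18 was 387 ± 32.3 TPM in vehicle (SD, n = 3), 388 ± 13 with CPC, 436 ± 34.8 with AEBDAC and 391 ± 10.8 with MTOAC. The aspartic protease Ctsd was the most abundant, at 180, 152 and 173 TPM in vehicle, 177, 166 and 181 with CPC, 188, 167 and 205 with AEBDAC and 170, 171 and 183 with MTOAC. The groups overlapped, and its 95% intervals, -0.17 to 0.28, -0.08 to 0.38 and -0.17 to 0.29 log2, were the narrowest among the cathepsins. The cysteine protease Ctsb followed at 85.5 to 131 TPM over the 12 libraries, and its gene model overlaps Fdft1, listed at 104 to 179 TPM, on the other strand. The carboxypeptidase Ctsa ranged from 23.1 to 38.6 TPM, Ctsf from 6.00 to 17.1 and Ctso from 4.14 to 9.51.

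Ctsl, another cysteine protease, had the smallest unadjusted p of the 40 genes between compounds. It stood at 67.1, 56.1 and 74.3 TPM in vehicle, 49.8, 54.9 and 59.3 with CPC, 79.3, 66.7 and 78.9 with AEBDAC and 58.7, 67.2 and 73.0 with MTOAC. All AEBDAC libraries lay above all CPC libraries, whereas both overlapped with vehicle. The difference between AEBDAC and CPC was 0.45 log2, with an unadjusted p of 0.00709 and an adjusted p of 1 in limma. Ctsz was the lowest of all tested members by mean, at 0.906 to 3.03 TPM, and the macrophage protease Ctss was listed at 0 in 11 libraries and at 0.114 TPM in the other.

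Among the other hydrolases and transfer proteins 4 of 6 were tested and 0 were called. Npc2, which hands cholesterol to Npc1 inside the lysosome, was the most abundant, at 65.4, 72.3 and 73.3 TPM in vehicle, 60.5, 79.2 and 74.6 with CPC, 72.8, 79.9 and 78.9 with AEBDAC and 65.3, 80.5 and 71.5 with MTOAC. Library 1 was the lowest of its group in all 4 groups and the groups overlapped, with fold changes of 0.01, 0.13 and 0.04 log2. Gusb, beta-glucuronidase, was low, at 1.71 to 5.53 TPM.

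Neu1, on chromosome 17 at 34931253 to 34935953 (GRCm38, plus strand), is the lysosomal sialidase. It stood at 9.75, 11.5 and 9.18 TPM in vehicle, 15.9, 15.5 and 14.5 with CPC, 13.8, 13.6 and 14.4 with AEBDAC and 11.2, 12.4 and 13.8 with MTOAC. CPC and AEBDAC libraries all lay above the vehicle libraries, and MTOAC library 1 lay below vehicle library 2. The difference was 0.56 ± 0.14 log2 with CPC (SE, 95% interval 0.25 to 0.86, limma adjusted p = 0.154), 0.43 ± 0.14 with AEBDAC (0.12 to 0.73, adjusted p = 0.131) and 0.28 ± 0.14 with MTOAC (-0.03 to 0.58, adjusted p = 0.245). With CPC it had the smallest adjusted p of the 40 genes, which did not pass the threshold.

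Hexa, a subunit of beta-hexosaminidase, followed the replicate number. It stood at 20.5, 7.88 and 8.47 TPM in vehicle, 19.6, 10.1 and 8.40 with CPC, 23.1, 8.46 and 10.4 with AEBDAC and 20.9, 9.60 and 8.79 with MTOAC. The 4 libraries numbered 1 lay at 19.6 to 23.1 TPM and those numbered 2 or 3 at 7.88 to 10.4, with fold changes against vehicle of only 0.08, 0.17 and 0.11 log2. The same library number held the highest value in all 4 groups for 4 of the 40 genes (10%; 13.3% of all tested genes) and the lowest for 6 (15%; 18.9%).

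All 7 genes of the group of lysosomal membrane proteins and their regulator were tested, and 0 were called. The tetraspanin Cd63 was the most abundant of the 40 genes, at 567, 314 and 517 TPM in vehicle, 425, 360 and 588 with CPC, 446, 391 and 604 with AEBDAC and 476, 410 and 717 with MTOAC. Library 2 was the lowest in every group, and the fold changes were -0.01, 0.06 and 0.20 log2. Lamp1, the major glycoprotein of the lysosomal membrane, ranged from 277 to 415 TPM with fold changes of 0.00, 0.08 and 0.10 log2, and its companion Lamp2 from 43.4 to 87.2 TPM with 0.11, 0.11 and 0.20. Npc1, which moves cholesterol out of the lysosome, ranged from 27.4 to 45.9 TPM, and Scarb2, the receptor that carries glucocerebrosidase there, from 41.0 to 51.8 TPM.

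Mcoln1, on chromosome 8 at 3500457 to 3515232 (GRCm38, plus strand), encodes the calcium channel TRPML1, and its fold changes were negative with each compound. It stood at 11.6, 25.1 and 19.5 TPM in vehicle, 6.42, 5.02 and 14.5 with CPC, 10.9, 6.13 and 11.3 with AEBDAC and 12.2, 4.61 and 4.46 with MTOAC. All AEBDAC libraries lay below all vehicle libraries, while CPC library 3 and MTOAC library 1 lay above vehicle library 1. Each treated library lay below vehicle libraries 2 and 3. Group means were 18.8 ± 6.78, 8.64 ± 5.11, 9.44 ± 2.87 and 7.09 ± 4.42 TPM (SD, n = 3). The fold changes were -1.10 ± 0.44 log2 with CPC (SE, limma adjusted p = 0.319), -0.90 ± 0.44 with AEBDAC (adjusted p = 0.295) and -1.36 ± 0.44 with MTOAC (adjusted p = 0.0865), and none passed the threshold. Without vehicle library 1 those with CPC and AEBDAC were -1.39 and -1.19, and without vehicle library 2 they were -0.86 and -0.67. That with MTOAC stayed between -1.77 and -1.12 on leaving out any 1 library.

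Tfeb, the transcription factor itself, was low. It stood at 3.62, 4.36 and 5.56 TPM in vehicle, 6.65, 4.90 and 5.96 with CPC, 7.44, 8.87 and 6.84 with AEBDAC and 7.36, 6.04 and 5.56 with MTOAC. All AEBDAC libraries lay above vehicle, and the lowest MTOAC library lay at the highest vehicle library to 3 digits. The fold changes were 0.32, 0.67 and 0.42 log2 (limma adjusted p of 0.510, 0.109 and 0.226), and 0.20, 0.55 and 0.30 without vehicle library 1. That with AEBDAC had the smallest adjusted p of the 40 genes in that comparison. TFEB is controlled mainly through its phosphorylation and place in the cell, which RNA levels do not report.

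The autophagy genes among the members were the cargo receptor Sqstm1 (p62) and the ATG8 proteins Map1lc3b, Gabarapl1 and Gabarapl2, which coat the growing autophagosome. All 4 were tested and 0 were called. Sqstm1 is often read as a sign of blocked autophagy at the level of its protein. Its RNA stood at 85.1, 0.417 and 1.53 TPM in vehicle, 1.87, 0.563 and 1.61 with CPC, 2.74, 2.61 and 0.597 with AEBDAC and 2.04, 2.01 and 50.5 with MTOAC. Vehicle library 1 and MTOAC library 3 were far above the other 10 libraries, whose median was 1.74 TPM. The fold changes were -1.57 ± 1.41, -1.28 ± 1.41 and 0.20 ± 1.41 log2 (SE, limma adjusted p of 0.651, 0.663 and 0.951). Without vehicle library 1 those with CPC and AEBDAC were 0.26 and 0.55. Sqstm1 (chromosome 11 at 50199366 to 50210827, GRCm38, minus strand) overlaps Mrnip on the other strand, listed at 1.98 to 11.5 TPM, and the library kit is not described as marking strand.

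Map1lc3b (LC3B) was high in the same pair of libraries. It stood at 68.8, 27.1 and 18.7 TPM in vehicle, 40.4, 31.7 and 25 with CPC, 22.1, 24.5 and 22.4 with AEBDAC and 33.5, 23.7 and 52.3 with MTOAC. All AEBDAC libraries lay below all CPC libraries, and each compound's libraries overlapped with vehicle. Against vehicle the differences were -0.04, -0.50 and 0.08 log2 (limma adjusted p of 0.976, 0.535 and 0.932), and without vehicle library 1 that with CPC was 0.48. Gabarapl1 stood at 113, 76.5 and 90.4 TPM in vehicle, 89.5, 82.2 and 98.1 with CPC, 86.8, 99.4 and 130 with AEBDAC and 97.8, 94.9 and 155 with MTOAC, with overlapping groups and fold changes of -0.04, 0.17 and 0.29 log2. Gabarapl2 ranged from 63.2 to 116 TPM.

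Vehicle library 1 and MTOAC library 3 were the 2 highest libraries for 9 of the 40 genes (22.5%): Atp6v0c, Atp6v0d1, Atp6v1b2, Atp6v1d, Lamp1, Map1lc3b, Npc1, Scarb2 and Sqstm1. They were so for 14.4% of all tested genes. The pluripotency gene Pou5f1 was listed at 7.83 TPM in vehicle library 1 and 9.64 in MTOAC library 3, and at 0 in the other 10. The summed pluripotency markers, of which 0 of 3 passed the filter, were 0.216 to 10.002 TPM, and Pou5f1 made up most of the highest sum. Nanog was listed at 0.216 to 0.915 TPM over the 12 libraries, and Zfp42 at 0 in all 12 libraries. The macrophage marker Cd68 was listed at 2.91 and 2.03 TPM in the same pair and at up to 0.949 in the others. The summed 12 markers of microglia and macrophages were 3.39 and 2.21 TPM there and 0.0313 to 2.25 in the others, and the summed OPC markers 1925 and 1213 TPM, against 1263 to 2300. For the 4 astrocyte markers the sums were 16.1 and 25.3 TPM, against 9.11 to 21.1 in the others. The 4 neuron markers came to 29.3 and 28.5 TPM, against 24.9 to 40.5. The part of these values in the levels of the 9 genes was not tested.

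**Figure D4:**
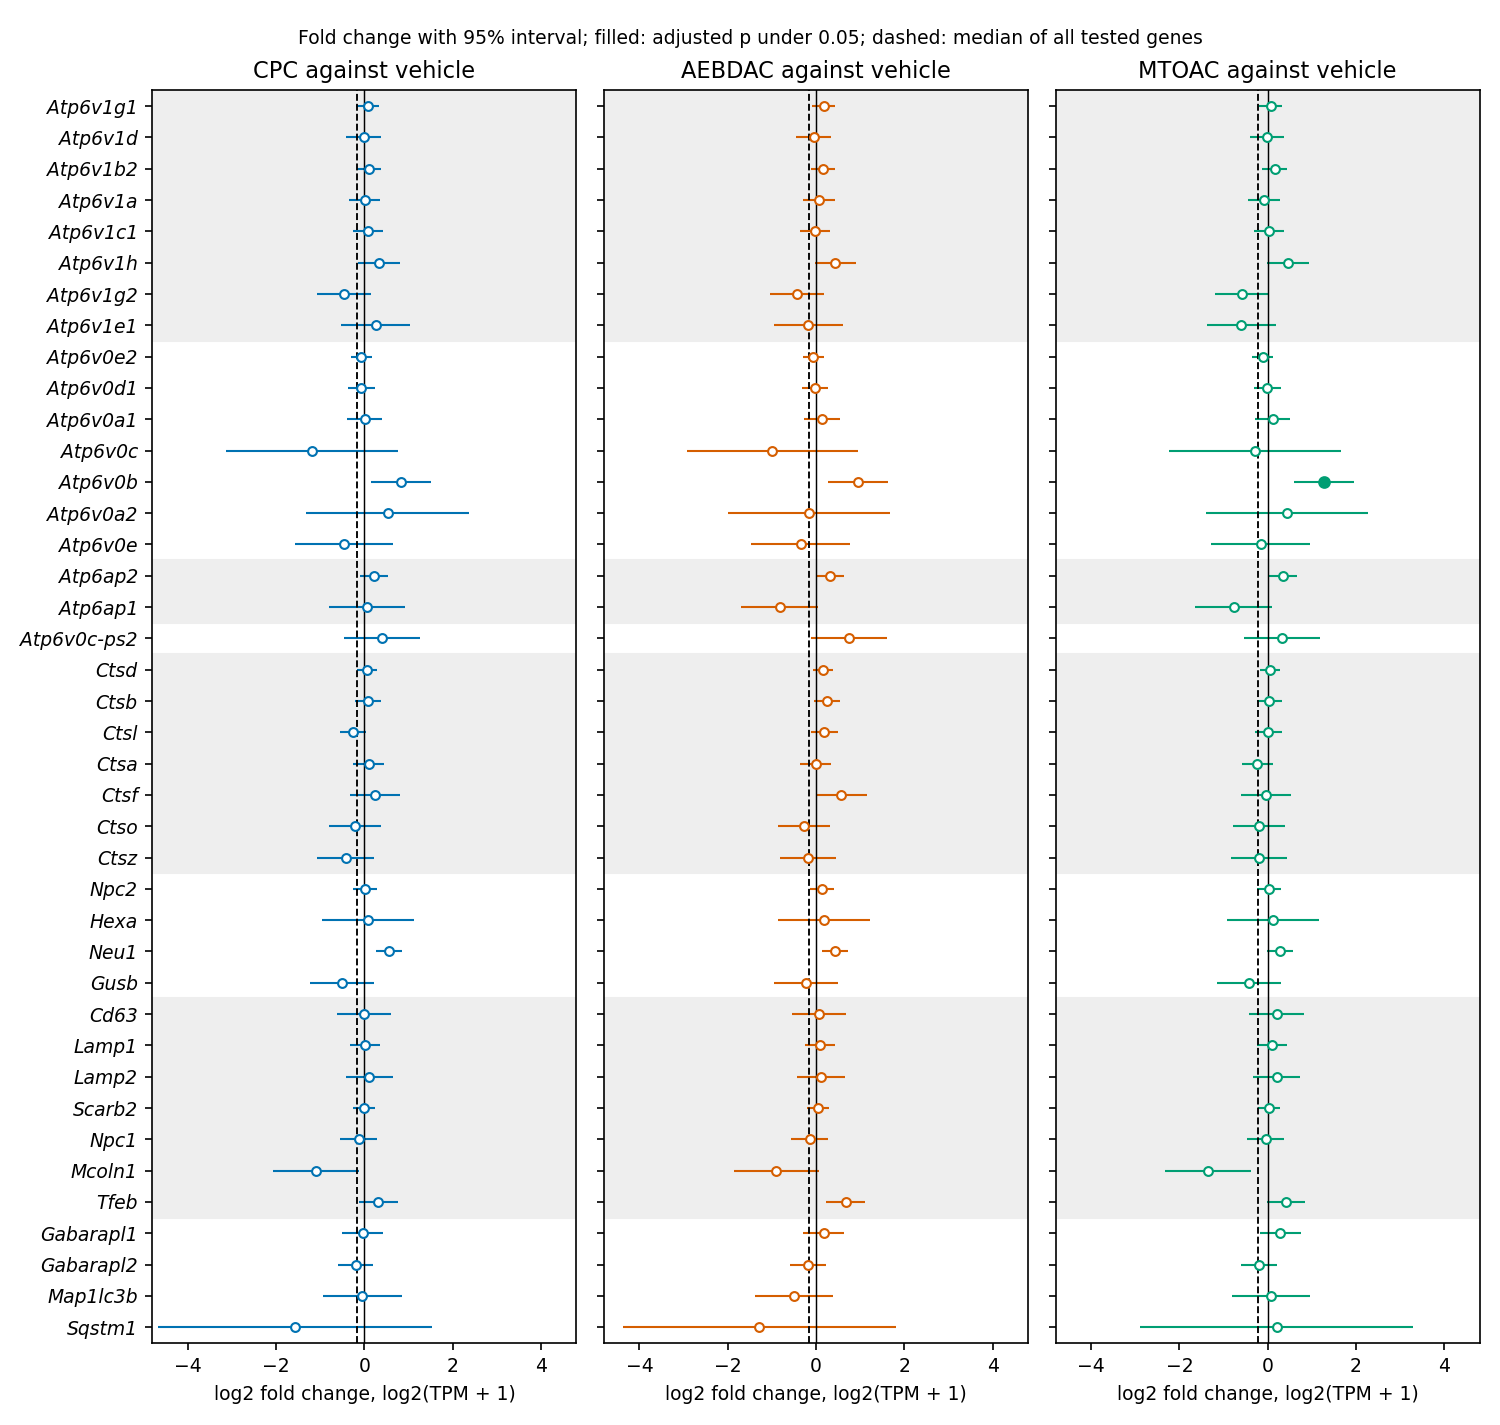
Log2 fold change on log2(TPM + 1) with its 95% interval (x axis) for the 40 tested genes (y axis) and each compound against vehicle, from the limma fit over all 12 libraries; a filled point has an adjusted p under 0.05, and the dashed line is the median of all tested genes. The interval of Atp6v0b with MTOAC is 0.59 to 1.95, and those of Sqstm1 and Atp6v0c are the widest.

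The libraries of a compound and of vehicle did not overlap for 2 of the 40 genes with CPC, both higher (2.58% of all tested genes did not overlap and were higher, 18% lower): Neu1 and Atp6ap2. With AEBDAC 5 did not overlap, of which Atp6v0b, Atp6ap2, Neu1 and Tfeb were higher (5.65% of all) and Mcoln1 was lower (19.2%). With MTOAC 3 did not overlap, all higher (3.99% of all, 22.4% lower): Atp6v0b, Atp6ap2 and Tfeb. Between compounds 0 of the 40 genes and 0% of all tested genes were called in each of the 3 comparisons. In limma an unadjusted p under 0.05 was reached by 2 of the 40 for AEBDAC against CPC (1.76% of all), 1 for MTOAC against CPC (3.74%) and 1 for MTOAC against AEBDAC (2.56%). Libraries did not overlap for 6 genes (6.88% of all tested genes), 3 genes (8.6%) and 2 genes (6.94%). The 95% interval of the difference lay within 1 log2 for 30 of the 40 genes (75%) in each pair of compounds. Of all tested genes it did so for 73.6%, 71.2% and 72.6%, in the same order of pairs.

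Of the 23 genes below the filter, 7 were listed at 0 in all 12 libraries: Gla, Atp6v1g3, Ctse, Ctsg, Ctsj, Ctsm and Ctsr. Gla, the lysosomal alpha-galactosidase, is used by most cells, and so is Atp6v1f, the single F subunit of the V1 head, which was listed at 0 in 5 libraries and at up to 1.78 TPM in the others. Actb, a cytoskeletal gene that most cells express strongly, was listed at only 31.6 to 76.2 TPM. Whether a listed 0 is a failed estimate was not tested. Glb1, beta-galactosidase, reached 1 TPM in 1 library, with a highest value of 1.49. The others, at most 0.900 TPM each, include Atp6v1c2, Atp6v1e2, Atp6ap1l, Atp6v0c-ps1, Atp6v1fnb, Ctsc, Ctsh, Ctsq and Ctsw, and forms known from specialised cells: Atp6v1b1, Atp6v0a4 and Atp6v0d2 were at most 0.320, 0.769 and 0.0255 TPM, and Ctsk, the osteoclast protease, at most 0.894.

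The wider pathway was read from 4 further lists, of lysosomal genes (47 of 50 tested), autophagy genes (42 of 43), regulators of TFEB and mTORC1 (24 of 27) and genes of the response to lysosomal damage (10 of 13). With CPC and with AEBDAC 0 genes of these lists were called by limma, against 0.0666% and 1.27% of all tested genes. An unadjusted p under 0.05 was reached by 2, 6, 3 and 2 genes of the lists with CPC (13.6% of all tested genes) and by 1, 10, 7 and 2 with AEBDAC (19.2%). With MTOAC 4, 9, 7 and 1 genes of the lists reached it (24.4% of all). The further lysosomal genes had median fold changes of -0.10, -0.09 and -0.05 log2 with the 3 compounds, and 0 were called with MTOAC (6.54% of all tested genes were). The further autophagy genes had -0.26, -0.31 and -0.30, with positive values for 7, 10 and 11 of 42 genes. Over all tested genes a fold change of 0 lay near percentile 71, 67 and 72. With MTOAC 2 of the autophagy genes were called, both lower (5.75% of all tested genes were called lower). The regulators had medians of -0.11, 0.05 and -0.14, and the damage genes -0.09, -0.02 and 0.03. These medians lie on the scale on which the median of all genes was -0.17, -0.16 and -0.22.

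Atg101, a subunit of the kinase complex that starts autophagy, was called lower with MTOAC. It stood at 30.8, 24.9 and 31.5 TPM in vehicle, 20.7, 22.5 and 21.8 with CPC, 20.8, 22.1 and 25.1 with AEBDAC and 16.2, 20.8 and 19.4 with MTOAC. All CPC and all MTOAC libraries lay below all vehicle libraries, and AEBDAC library 3 lay above vehicle library 2. The fold change with MTOAC was -0.60 ± 0.14 log2 (SE, limma adjusted p = 0.0340). Tecpr1, which tethers autophagosomes to lysosomes, went from 9.48, 10.2 and 10.8 TPM in vehicle to 6.40, 6.35 and 5.04 with MTOAC, without overlap (-0.69 ± 0.17 log2, limma adjusted p = 0.0409). It stood at 8.15, 8.43 and 8.03 TPM with CPC and 9.24, 8.52 and 6.19 with AEBDAC, also below all vehicle libraries. Of all tested genes 18%, 19.2% and 22.4% lay below vehicle without overlap with CPC, AEBDAC and MTOAC.

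Among the 24 tested regulators 1 gene was called higher with MTOAC (0.791% of all tested genes were) and 1 lower (5.75%). Sesn2, a stress-induced leucine sensor that restrains mTORC1, stood at 70.3, 73.4 and 46.1 TPM in vehicle, 81.8, 119 and 81.3 with CPC, 107, 156 and 119 with AEBDAC and 113, 139 and 104 with MTOAC. Each of the 9 treated libraries lay above all vehicle libraries, and limma called the MTOAC difference (0.91 ± 0.22 log2, adjusted p = 0.0359). Depdc5, a subunit of the complex that shuts mTORC1 down when amino acids are short, went from 30.5, 19.3 and 16.1 TPM to 10.5, 6.77 and 11.3 (-1.11 ± 0.28 log2, adjusted p = 0.0400 in limma). Vcp, an ATPase that helps clear damaged lysosomes, went from 497, 330 and 339 TPM to 257, 247 and 283 (-0.54 ± 0.14 log2, adjusted p = 0.0492 in limma). Neither gene's MTOAC libraries overlapped with vehicle. Depdc5 stood at 13.1, 18.2 and 12.8 TPM with CPC and 14.8, 9.94 and 16.4 with AEBDAC, and both overlapped with vehicle. Vcp stood at 298, 268 and 288 TPM with CPC and 275, 256 and 286 with AEBDAC, all below vehicle. Each of these 5 calls was lost on leaving out any of at least 5 of the 6 libraries, with an adjusted p of up to 0.144.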

How the data were processed

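Poly(A) RNA from 12 libraries was sequenced in 150 bp read pairs to a minimum of 20 M reads, per the labels' protocols. Salmon and genome build mm10 are named per the submitters' processing notes. Salmon's version and the annotation behind it are not given in the sources used. Per library, the authors deposited TPM values per gene symbol and library. TPM are shares of a library's transcripts and keep no trace of depth, which is otherwise unknown here. Groups and library numbers were taken from the sample titles.

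Members were found by symbol, and coordinates came from GENCODE M21 (GRCm38, the assembly of mm10). The members and all gene lists were chosen with earlier results of these data known. Genes reaching 1 TPM in 3 or more libraries entered limma 3.58.1 in R 4.3.3 (trend, robust) on log2(TPM + 1). All 12 libraries entered 1 fit of 4 group means, and two-sided p-values were adjusted by Benjamini and Hochberg over 12009 genes within each of 6 comparisons. Of the planned tests for counts or TPM values, that for TPM applied. The test was tested on simulated data. With 3 libraries against 3, exact permutation p-values reach 0.1 at the lowest. Near copies were aligned with BLAST 2.17.0.

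Genes given with every library were those called, the most abundant of each role group and the 2 highest and 2 lowest fold changes per compound against vehicle; those listed at 0 or lowest are given by range. Ctsl, Hexa, Tfeb and Map1lc3b were added after their values were seen, as were the other genes given only by range. Called genes of the further lists were also named.

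No libraries were identical, and correlations within groups were 0.915 to 0.964. Library numbers come from the titles, which do not say that they mark shared cultures. Deviations from group means correlated, between same-numbered libraries, at 0.34, 0.31 and 0.23 for CPC and vehicle, and in all 3 pairs over 0.1 also for AEBDAC and CPC and for MTOAC and AEBDAC, but not in the other 3 comparisons. The alternatives were another pseudocount, no filter, quantile normalization, rescaling without mitochondrially encoded genes, fits of 2 groups, the library number as a block and leaving out each library; leaving out vehicle library 1 and MTOAC library 3 together and summing Atp6v0c with its pseudogene were chosen after seeing the data.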

Additional observations from a re-analysis of the deposited data

How the results depend on the processing

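The number of lysosomal genes called was 0 with CPC and AEBDAC and 1 with MTOAC in the reported fit. With the library number as a block (replicate block) it was 1 with CPC (Atp6v0b), 1 with AEBDAC (Atp6v0b) and 2 with MTOAC (Atp6v0b higher, Atp6v1g2 lower), and with the block and quantile normalization together 1 (Neu1), 4 and 5. The numbers met the rule for pairing only for CPC and vehicle among these. The share of all tested genes called was not computed for the alternative fits, so their counts cannot be set beside it. Between compounds the count stayed 0 with the block. With MTOAC the count was 0 without the filter on low values, with quantile normalization, in a fit of the 2 groups alone and without vehicle library 1 and MTOAC library 3, and 0 to 1 on leaving out 1 library. The cause was not tested. The medians relative to all tested genes were 0.066, 0.097 and 0.11 log2 with CPC, AEBDAC and MTOAC without the filter, which adds low genes, in place of 0.17, 0.21 and 0.25. Left-out libraries kept these relative medians at 0.14 to 0.20 (CPC), 0.15 to 0.26 (AEBDAC) and 0.21 to 0.28 (MTOAC). Signs turned only for uncalled values of Atp6ap1, Sqstm1, Atp6v0c and Map1lc3b among the genes recomputed. On leaving out 1 library the CPC values ran from -0.23 to 0.47 log2 for Atp6ap1, -2.70 to 0.26 for Sqstm1, -1.87 to -0.15 for Atp6v0c and -0.43 to 0.48 for Map1lc3b. Those with AEBDAC ran from -2.41 to 0.55 for Sqstm1, -1.68 to 0.044 for Atp6v0c and -0.89 to 0.026 for Map1lc3b. Those with MTOAC ran from -1.16 to 2.04 for Sqstm1, -1.16 to 0.75 for Atp6v0c and -0.31 to 0.60 for Map1lc3b. Without vehicle library 1 and MTOAC library 3 together the CPC values were -0.065 (Atp6ap1), 0.26 (Sqstm1) and 0.48 (Map1lc3b), and those with AEBDAC 0.55 (Sqstm1), 0.044 (Atp6v0c) and 0.026 (Map1lc3b). Map1lc3b with CPC was 0.13 under quantile normalization, with and without the block, and Atp6v0c summed with its pseudogene was 0.15, 0.49 and 0.18. TPM carry no counts, so the precision of low genes such as Tfeb and Ctsz is known only from the spread between 3 libraries.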
